A study of Caenorhabditis elegans with 6 samples.

Results

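Body-shape collagens are the cuticle collagens whose mutants gave the classical shape phenotypes of Caenorhabditis elegans: roller (rol), squat (sqt), dumpy (dpy), long (lon) and blistered (bli). The members were 10 genes chosen by name, rol-6, sqt-1, sqt-2, sqt-3, dpy-13, dpy-5, dpy-4, dpy-17, lon-3 and bli-1, out of 17118 genes named on the array. The array carried 12 probe sets for them among 22548 tested, with 2 each for sqt-3 and bli-1, and every one is described. Transcripts were measured on 6 Affymetrix arrays in wild-type worms of strain CC1, all grown in C. elegans Maintenance Medium (CeMM), a liquid medium without bacteria. The 3 arrays of the space condition came from worms of mixed stages that lived aboard the International Space Station for up to 10 generations, exposed to radiation and microgravity, and were moved automatically to a fresh chamber about once a month. The 3 ground control arrays came from worms passaged in step with them on Earth. Arrays of a group are labelled technical replicates, and no source used here says how many cultures or extracts lay behind them. A p-value here weighs a difference against the scatter of single arrays, which may be technical, and 3 arrays a group limit the precision.

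The worm cuticle is an exoskeleton of crosslinked collagens that the epidermis secretes and rebuilds at every moult. Its collagens belong to a large family of small proteins with interrupted glycine-rich repeats, and each is made in a burst within the moulting cycle. Chains are hydroxylated and folded in the endoplasmic reticulum, trimmed by proteases outside it and then crosslinked. Loss or alteration of 1 collagen can change the shape of the whole animal, as with the dominant roller allele of rol-6 that is used as a marker of transgenic worms. Body length is also set by DBL-1, a signal of the TGF-beta family that acts on the epidermis.

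The deposited intensities were scaled by the authors to a like mean on each array, and array medians were 102.5 to 128.1. Differences are given on the scale log2(intensity + 16), space condition minus ground control, where a rise or fall is called at an adjusted p under 0.05 and at least 2-fold. As a gauge of background, 8 control probe sets for yeast and bacterial sequences that should be absent read 0.562 to 86.7, with a median of 6.48. Their highest reading was 42.8, 52.0 and 47.0 on space arrays 1 to 3 and 41.8, 86.7 and 54.5 on ground arrays 1 to 3. Over all probe sets, 2 arrays correlated at 0.960 to 0.976 within a group and at 0.926 to 0.952 across groups. The actin controls, which gauge transcript integrity and labelling, had a log2 5'/3' ratio of -3.12 ± 0.164 in the space condition against -3.97 ± 0.358 in the ground control (SD, n = 3 each), and the groups did not overlap. The Gapdh controls stood at -1.50 ± 0.561 against -2.13 ± 1.41 and overlapped. Their mean on each array, used below as a covariate, overlapped too, at -2.66 to -1.94 against -3.97 to -2.23.

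Transcripts of 4 of the 10 genes fell in the flown worms on at least 1 probe set, and those of 0 rose. They were sqt-3, sqt-2, rol-6 and sqt-1, the genes of the roller and squat names. On the ground arrays these 4 probe sets read between 128 and 2225, and on the space arrays between 13.4 and 79.7, near the readings of the absent sequences. Space readings exceeded the highest absent sequence of their own array on 3 of 3 arrays for sqt-2, on 2 for sqt-3 and on 1 each for rol-6 and sqt-1. The dumpy genes dpy-13, dpy-4, dpy-5 and dpy-17 had no call, and lon-3 and bli-1 lay near background on all arrays. With every gene read on 1 probe set only, the one with the highest mean, 3 of the 10 fell, against 2.42% of all genes. Read this way sqt-3 had no call, since 172820_x_at then stood for it. The lists of other genes below were counted in this way. By probe set, 4 of 12 fell against 2.16% of all probe sets tested, and 0 of 12 rose against 5.15%. All 3 space arrays lay below all 3 ground arrays for 6 of the 12, against 13% of all probe sets, and above them for 0, against 17.3%. The median log2 difference of the 12 was -0.47, against -0.01 over all probe sets. The members were chosen with earlier results of these data known, so these shares and medians describe them and are no independent test. With space condition 1 and ground control 3 both left out, 0 probe sets of the whole array were called by limma. There were then 5176 at an unadjusted p under 0.05, including 5 of the 12 collagen probe sets, each lower. With all 6 arrays there were 5553, also including 5 of the 12, each lower. No other pair of arrays was left out. Whether the calls were lost through these arrays or through the smaller number of arrays was not tested. In bulk samples such as these, fewer cells of a type and less RNA per cell cannot be told apart.

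**Figure D1:**
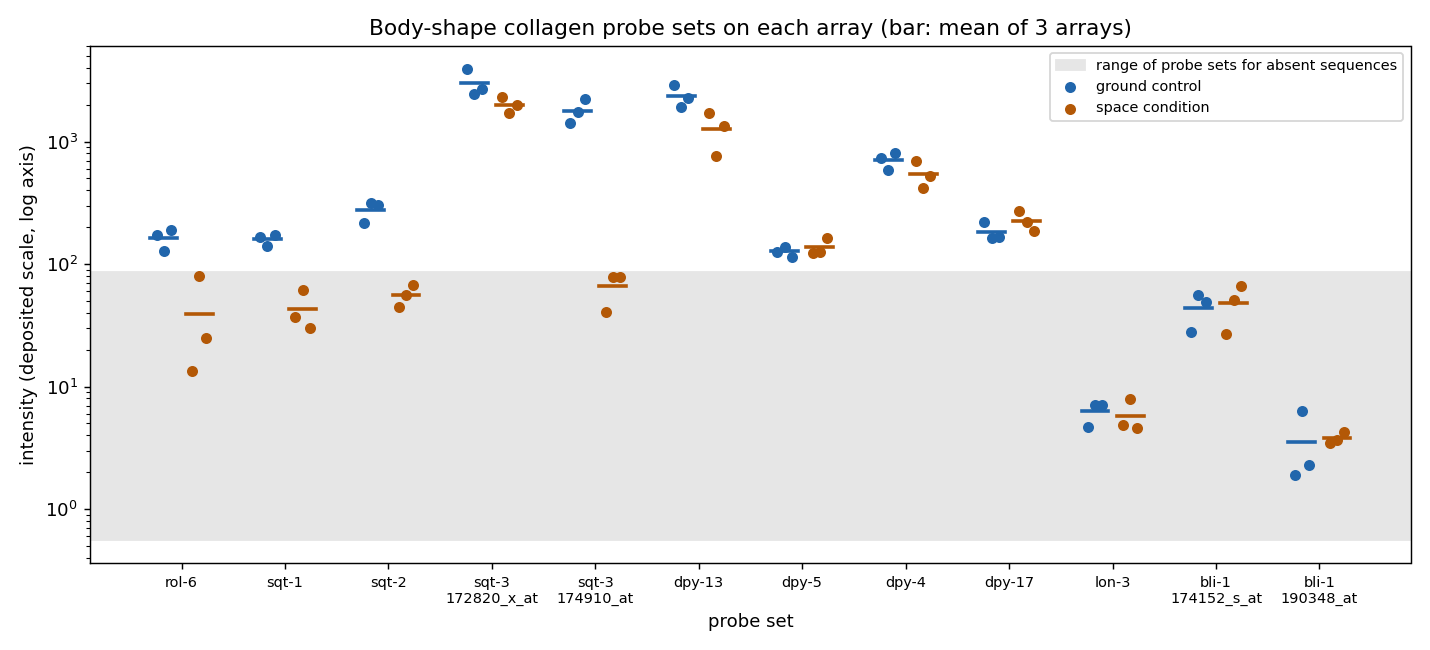
Deposited intensity (log axis) of each of the 12 body-shape collagen probe sets on each array, with a bar at the mean of 3 arrays and grey shading over the range of probe sets for absent sequences over all 6 arrays (0.562 to 86.7), of which the top was read on ground control 2. The space arrays of rol-6, sqt-1, sqt-2 and sqt-3 174910_at lie at 13.4 to 79.7, below the ground arrays at 128 to 2225.

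The collagen gene sqt-3 is needed for viability and normal body length, and its product is trimmed by the astacin protease DPY-31. Its probe set 174910_at read 40.9, 79.1 and 78.7 on space arrays 1 to 3 and 1426, 1731 and 2225 on ground arrays 1 to 3. The groups lay far apart, with every space array more than 10-fold below every ground array. The mean intensity was 66.2 ± 21.9 in the space condition and 1794 ± 403 in the ground control (SD, n = 3 each). Space condition 1 lay below the highest absent sequence of its array. With that reading in its place the geometric mean was 27.4-fold lower in the space condition, with no allowance for the scatter between arrays. The log2 difference was -4.48 ± 0.29 (SE, adjusted p = 0.000886, limma). With a pseudocount of 1 the difference was -4.78 and with 64 it was -3.83.

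The other probe set of sqt-3, 172820_x_at, carries the x mark that the maker of the array gives to probes shared with other sequences. It read 2293, 1713 and 2000 on space arrays 1 to 3 and 3883, 2434 and 2677 on ground arrays 1 to 3. The space arrays were again below the ground arrays without overlap, but closely so. The log2 difference was -0.56 ± 0.25 with a 95% interval of -1.14 to 0.02, and it had no call (adjusted p = 0.219). On each array, the log2 value of 174910_at minus that of 172820_x_at was -5.34 to -4.19 in the space condition and -1.43 to -0.27 in the ground control. The changes of the 2 probe sets thus differed by 3.92 log2 units (exact permutation test, two-sided p = 0.1, the smallest that 3 arrays against 3 allow). Among 2981 genes with several probe sets, the range of log2 differences within a gene had a median of 0.39 and a 95th percentile of 1.25, and that of sqt-3 was the second widest. The widest, at 4.17, was that of another cuticle collagen, col-109. Which transcripts 172820_x_at reads beside sqt-3 was not tested, so the size of the sqt-3 fall depends on the probe set chosen.

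The gene sqt-2 encodes a collagen whose mutants are squat or rolling. Its probe set read 45.0, 56.1 and 67.4 on space arrays 1 to 3 and 215, 314 and 305 on ground arrays 1 to 3. The groups did not overlap, and the lowest ground array stood more than 3-fold above the highest space array. The mean fell from 278 ± 54.8 to 56.2 ± 11.2 (SD, n = 3 each), a log2 difference of -2.02 ± 0.24 (adjusted p = 0.00575). With each array left out in turn it stayed between -2.19 and -1.90, past the threshold each time.

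The collagen gene rol-6 is the one whose dominant allele makes worms roll. Its probe set read 13.4, 79.7 and 24.8 on space arrays 1 to 3 and 172, 128 and 189 on ground arrays 1 to 3. The space arrays were scattered and space condition 2 stood apart from the other two, yet it remained below every ground array. The mean fell from 163 ± 31.3 to 39.3 ± 35.5 (SD, n = 3 each), a log2 difference of -1.87 ± 0.42 (adjusted p = 0.0345), with a 95% interval of -2.84 to -0.89. With space conditions 1 and 3 raised to the highest absent sequence of their arrays, the geometric mean was 2.96-fold lower. That value makes no allowance for the scatter between arrays. This call was close to the threshold. Without ground control 1, 2 or 3 or space condition 1 or 3 the difference was -2.01 to -1.50 with adjusted p of 0.0731 to 0.112, and without space condition 2 it was -2.36 (adjusted p = 0.0266).

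A relative of rol-6, sqt-1, encodes a collagen whose different alleles give squat, rolling or long worms. Its probe set, which carries the s mark of probes shared between transcripts, read 37.0, 61.6 and 29.8 on space arrays 1 to 3 and 167, 140 and 174 on ground arrays 1 to 3. As with rol-6, space condition 2 was the highest of the space arrays and ground control 2 the lowest of the ground arrays. The mean fell from 161 ± 17.8 to 42.8 ± 16.7 (SD, n = 3 each), a log2 difference of -1.62 ± 0.25 (adjusted p = 0.0110). With space conditions 1 and 3 raised in the same way the geometric mean was 3.21-fold lower, again with no allowance for scatter. With each array left out in turn the adjusted p ranged from 0.0297 to 0.0491. After each profile over the 6 arrays was centred on its own mean, rol-6 and sqt-1 differed by a root mean square of 0.36 log2 units, sqt-1 and sqt-2 by 0.41 and rol-6 and sqt-2 by 0.56. The profile of sqt-3 174910_at lay 1.24 to 1.47 units from these 3.

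**Figure D2:**
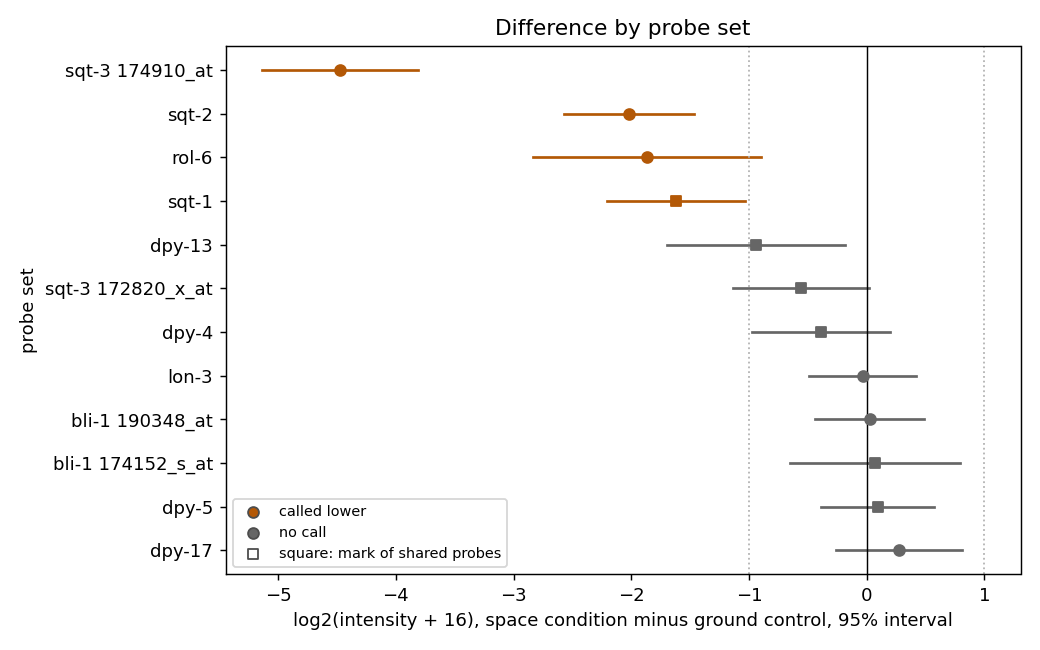
Difference between the groups for each of the 12 probe sets on the scale log2(intensity + 16), with 95% intervals from limma, dotted lines at 2-fold, and squares for probe sets with a mark of shared probes. The 4 called probe sets lie at -4.48 to -1.62, and the other 8 lie between -0.94 and 0.27.

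Collagens of the dumpy class gave no call. Of these, dpy-13 and dpy-4 were read only on x-marked probe sets, and the x-marked probe set of sqt-3 had no call either. For them, class and probe mark cannot be told apart. The gene dpy-17 encodes a collagen that sqt-3 collagen needs for secretion. Its probe set read 269, 222 and 184 on space arrays 1 to 3 and 220, 163 and 167 on ground arrays 1 to 3. The groups overlapped, and the log2 difference was 0.27 ± 0.23, with a 95% interval of -0.26 to 0.81 (adjusted p = 0.537). That interval does not reach a 2-fold change in either direction, while the unmarked probe set of sqt-3 on the same arrays had an interval of -5.14 to -3.81.

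The probe set of dpy-13, a collagen gene whose loss gives short, stout worms, carries the x mark. It read 1700, 759 and 1344 on space arrays 1 to 3 and 2877, 1909 and 2272 on ground arrays 1 to 3. All space arrays were below all ground arrays, with space condition 1 near ground control 2. The mean was 1268 ± 475 against 2353 ± 489 (SD, n = 3 each), a log2 difference of -0.94 ± 0.33 (adjusted p = 0.124), short of the threshold. Without space condition 2, the lowest array, it was -0.61 (adjusted p = 0.299). Profiles of dpy-13 and of 172820_x_at of sqt-3, both x-marked, differed by 0.30 log2 units.

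For dpy-4, also a dumpy collagen gene with an x-marked probe set, the space arrays read 690, 420 and 519 and the ground arrays 735, 584 and 805. These overlapped, since space condition 1 exceeded ground control 2, and the log2 difference was -0.39 ± 0.25 with an interval of -0.98 to 0.20 (adjusted p = 0.401). The dumpy collagen gene dpy-5 read 124, 125 and 162 in the space condition and 126, 139 and 115 in the ground control. Its groups overlapped too, and its log2 difference was 0.09 ± 0.21, with an interval of -0.39 to 0.58 (adjusted p = 0.834). The interval for dpy-5 excludes a 2-fold change on this scale, and its probe set carries the s mark.

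The remaining collagens were read near background. For lon-3, a collagen gene whose loss makes worms long and whose excess makes them dumpy, the 6 arrays ranged from 4.59 to 7.93, about the median of the absent sequences. Its log2 difference of -0.03 ± 0.20 (adjusted p = 0.938) says little about its transcript. The gene bli-1 encodes a collagen of the struts that join the layers of the adult cuticle. Its unmarked probe set 190348_at ranged from 1.91 to 6.36 over the 6 arrays, with a log2 difference of 0.03 ± 0.20 (adjusted p = 0.955). Its s-marked probe set 174152_s_at read 26.7, 50.6 and 66.4 in the space condition and 27.8, 55.4 and 48.8 in the ground control, which overlapped (0.07 ± 0.31, adjusted p = 0.921). A difference in lon-3 or bli-1 was not detectable at these levels.

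Among the other collagens of body shape and of the cuticle's annuli, 1 of 9 measured genes fell and 0 rose, against 2.42% and 5.34% of all 17118 genes with 1 probe set each, and the median was -0.17. The gene that fell, rol-8, a roller collagen, went from 218 to 81.9 (-1.28 ± 0.28, adjusted p = 0.0319) on an s-marked probe set, and its unmarked probe set stood at -0.57 (adjusted p = 0.172). The rol-8 call was lost without space condition 1 or 3 or ground control 1 or 2 (adjusted p of 0.0840 to 0.103), with the mean log2 5'/3' ratio of each array as a covariate (0.0666) and with a pseudocount of 1 (0.0664). With a pseudocount of 64 the change was under 2-fold (-0.96). The annulus collagen genes dpy-7 (-0.98 ± 0.30) and dpy-2 (-0.94 ± 0.28) were lower without overlap but had no call (adjusted p = 0.0868 and 0.0798). A second probe set of dpy-2, 173355_s_at, overlapped at 0.07 ± 0.34. Of the 9 genes, 6 did not exceed 86.7 on any array. Of 128 numbered cuticle collagens (col genes) 11 fell and 0 rose, with a median of -0.27, and 57 of the 128 did not exceed 86.7 on any array. Without space condition 1, 2 or 3 the number that fell was 4 each time, without ground control 2 or 3 it was 7, and without marked probe sets it was 4. The largest difference was in col-109, whose probe set 173235_at read 3.96 to 11.1 in the space condition and 351 to 536 in the ground control (-4.30 ± 0.24, adjusted p = 0.000886). Its other probe set, 188659_at, stood at -0.13 (adjusted p = 0.845). Next were col-113 (-2.69 ± 0.31) and col-97 (-2.09 ± 0.27), and another probe set of col-97 stood at -0.07. The brightest, col-106, read a mean of 6796 against 8697 without a call (-0.37 ± 0.21, adjusted p = 0.338).

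Of 11 genes for folding, trimming and crosslinking collagen, 3 fell and 0 rose, with a median of -0.38. The astacin protease gene dpy-31 fell from 1429 to 662 on 1 of its 3 probe sets (-1.09 ± 0.21, adjusted p = 0.0199), and the others stood at -0.66 and -0.06 with no call. The genes dpy-18 (-1.20 ± 0.22) and pdi-2 (-1.20 ± 0.29) fell as well, and encode an alpha subunit and the protein disulphide isomerase subunit of prolyl 4-hydroxylase. Other probe sets stood at -1.17 and -0.70 for dpy-18 and at -0.99 for pdi-2, with no call. These calls depended on single arrays. For dpy-31 the call was lost without any 1 array other than ground control 1 (adjusted p of 0.0506 to 0.0807). For pdi-2 it was lost without any 1 array other than space condition 1 (0.0642 to 0.143). For dpy-18 it was lost without space condition 2 or 3 or ground control 2 (0.0534 to 0.0688). The convertase gene bli-4 (-0.50 ± 0.24, adjusted p = 0.257) and the dual oxidase gene bli-3 (-0.38 ± 0.20, adjusted p = 0.296) had no call. Nor had dpy-11, the brightest of the list, a thioredoxin-like enzyme gene, at -0.18 ± 0.19 (adjusted p = 0.621).

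In the DBL-1 body size pathway 1 of 10 measured genes fell and 0 rose, with a median of -0.37. That gene, lon-1, encodes a secreted protein of the epidermis whose loss makes worms long, and its mean went from 1410 to 270 (-2.29 ± 0.28, adjusted p = 0.00635). The ligand gene dbl-1 was lower without overlap and without a call (-0.89 ± 0.30, adjusted p = 0.111). In the other direction sma-10, for a membrane protein of the pathway, had all space arrays above all ground arrays, also without a call (0.73 ± 0.22, adjusted p = 0.0867). The brightest gene, the zinc-finger gene sma-9, stood at -0.45 ± 0.22 (adjusted p = 0.248). Of the receptor and SMAD genes, sma-6, sma-2 and sma-3 stood between -0.02 and 0.05. The receptor gene daf-4 stood at -0.62 ± 0.31 with overlap and without a call (adjusted p = 0.265). The SMAD gene sma-4 was lower without overlap, also without a call (-0.39 ± 0.22, adjusted p = 0.328). Of 8 epidermal transcription factor genes 1 fell and 0 rose (median -0.30). The zinc-finger factor gene blmp-1 went from 389 to 122 (-1.59 ± 0.27, adjusted p = 0.0137) on 1 probe set and stood at -0.13 on another, and its call was lost without space condition 3 (adjusted p = 0.0509) and with the 5'/3' covariate (0.0547). The epidermal identity gene lin-26 stood at 0.02 ± 0.27 (adjusted p = 0.974) on its brightest probe set, as 1376 against 1367. Its other probe set had all space arrays above all ground arrays without a call, as 122 against 77.0 (0.56 ± 0.25, adjusted p = 0.219).

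**Figure D3:**
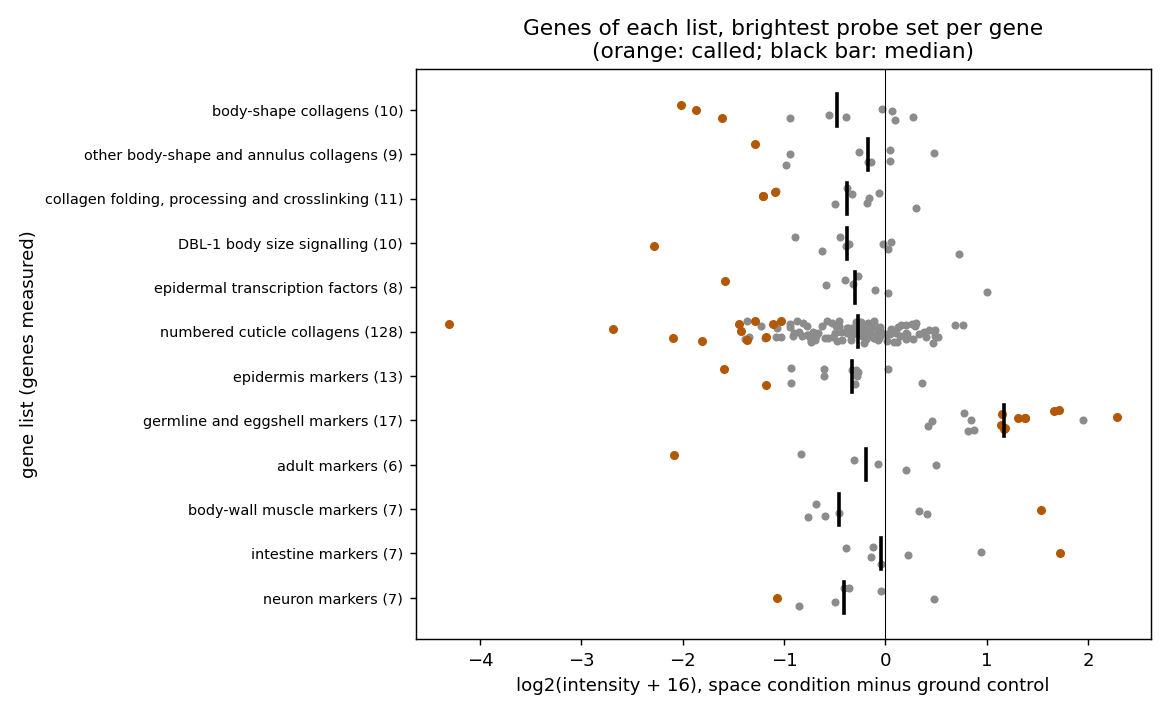
Difference between the groups for each gene of each list, on its brightest probe set, on the scale log2(intensity + 16), with called genes in orange and a black bar at each median. The body-shape collagens have a median of -0.47 and the germline and eggshell markers of 1.17.

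Among the markers of tissues, those of germline and eggshell were higher in the space condition. Of 17 such genes 10 rose and 0 fell, and their summed intensity was 13935 to 14906 per space array and 5546 to 6337 per ground array. The largest rises were in cbd-1, an eggshell gene (2.29 ± 0.36, adjusted p = 0.0110), the germ granule gene pgl-1 (1.71 ± 0.27, adjusted p = 0.0111) and syp-1, a gene of the synaptonemal complex (1.67 ± 0.19, adjusted p = 0.00547). The brightest, the germline helicase gene glh-1, rose as well (1.17 ± 0.22, adjusted p = 0.0204). The number that rose was 4 without space condition 1 or 2, 5 without space condition 3 or ground control 2, 6 with the 5'/3' covariate and 3 without marked probe sets.

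Of 13 epidermis markers 2 fell and 0 rose, and 2 of the 13 did not exceed 86.7 on any array. The median was -0.33, and 11 of the 13 lay below 0. All space arrays lay below all ground arrays for 5 of the 13, against 2362 of all 17118 genes. The fibrillin-like gene fbn-1 (-1.59 ± 0.23, adjusted p = 0.00842) and the moulting gene mlt-11 (-1.18 ± 0.26, adjusted p = 0.0326) fell, and other probe sets of both had no call. The summed intensity of the 13 markers was 7793 to 9064 per space array and 12672 to 14718 per ground array. Most of it came from the receptor gene lrp-1 (mean 5036 against 9648, -0.94 ± 0.19, under 2-fold). Without lrp-1, the gene of the list with the largest difference in mean intensity, the sums were 2947 to 3639 and 3568 to 4590. These overlapped, and leaving out that gene favoured overlap. The summed intensity of the body-shape collagens, with each gene read on its brightest probe set, was 3496 to 5203 per space array and 5874 to 8428 per ground array. This sum came mostly from x-marked probe sets without a call, and without them it was 520 to 603 and 933 to 1006. The 4 called probe sets summed to 136 to 277 and 1980 to 2893. They were picked because they were lower in the space condition, so the separation of these sums was set by that choice. It cannot be compared with that of the other sums. Most of the ground sum came from the unmarked probe set of sqt-3, which read 1426 to 2225 on the ground arrays.

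Markers of other tissues had few calls. Their median log2 differences were -0.46 for body-wall muscle, -0.41 for neuron, -0.19 for adult markers and -0.05 for intestine. The body-shape collagens stood at -0.47 and all genes at -0.02, so a median this low was not particular to the collagens. Of 6 adult markers 1 fell (the yolk protein gene vit-5, -2.08 ± 0.25, on an x-marked probe set), the brightest, vit-6, stood at -0.31 ± 0.22, and the adult collagen gene col-19 stood at -0.08 ± 0.27. Of 7 body-wall muscle genes 1 rose, the myosin gene myo-3 (1.53 ± 0.27), while the brightest, the paramyosin gene unc-15, stood at -0.76 ± 0.20 without a call. Of 7 intestine genes 1 rose, the peptide transporter gene pept-1 (1.72 ± 0.34), and the brightest, the protease gene asp-1, stood at -0.13 ± 0.23. Of 7 neuron genes 1 fell, rab-3 (-1.07 ± 0.21), and the brightest, snb-1, stood at -0.41 ± 0.22. The calls of myo-3, pept-1 and rab-3 were each lost with the 5'/3' covariate and without at least 1 single array. The part of tissue makeup or stage in the collagen differences was not tested. With an array's mean log2 5'/3' ratio, taken over its actin and Gapdh controls, as a covariate, the log2 difference was -4.13 for sqt-3 174910_at (adjusted p = 0.00957), -1.82 for sqt-2 (0.0268) and -1.51 for sqt-1 (0.0458). For rol-6 it was -1.55 (adjusted p = 0.128), past the threshold no longer.

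By profile, the gene nearest to rol-6 over the 6 arrays was F19B10.2, at a root mean square difference of 0.31 log2 units, among 8682 genes above the median level. Others near to it were C23H5.8 (0.34), F28H1.1 (0.36) and spig-13 (0.40). On the space arrays F19B10.2 read 55.7, 120 and 81.4, with space condition 2 the highest, as for rol-6, a likeness it was picked for. Its ground arrays read 315, 351 and 454. A second probe set of F19B10.2 overlapped between the groups, at 0.36 ± 0.59.

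**Figure D4:**
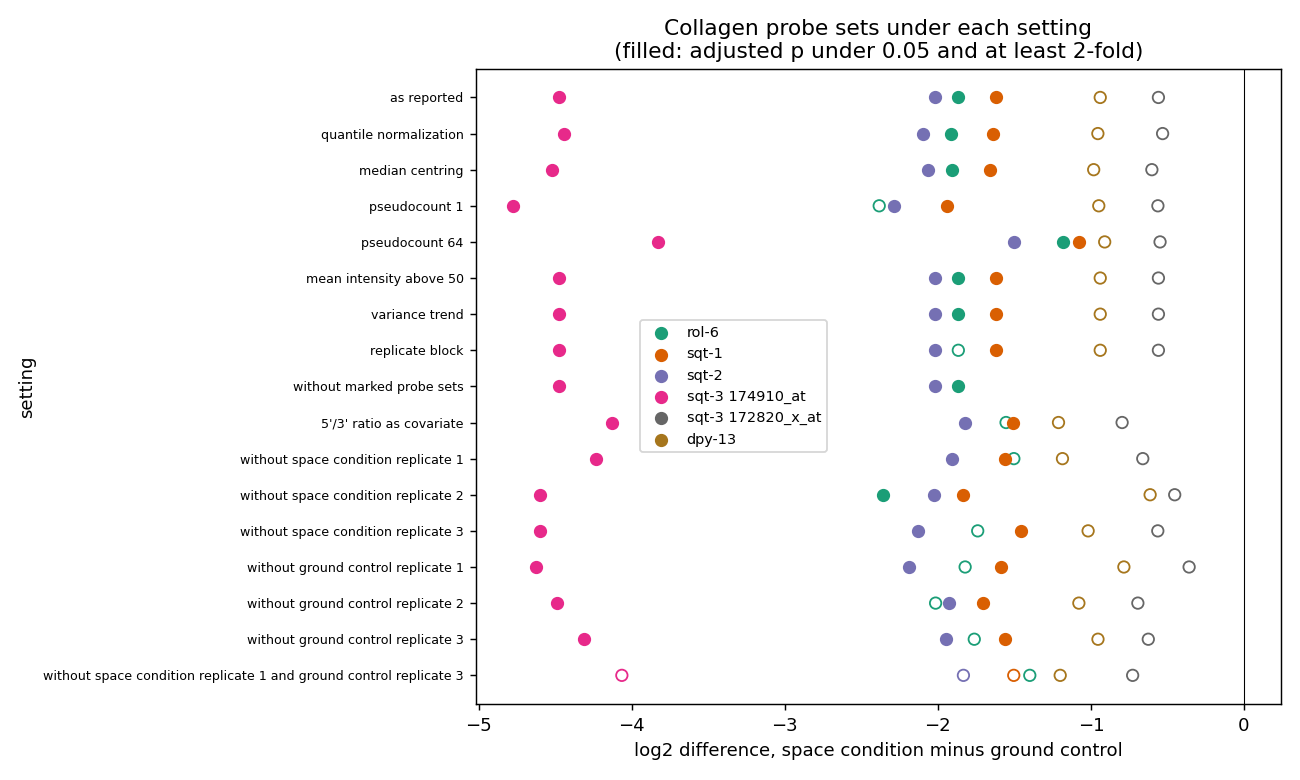
Log2 difference of 6 collagen probe sets as reported and under 16 other settings, filled where the adjusted p is under 0.05 and the change at least 2-fold. The unmarked sqt-3 probe set stays between -4.78 and -3.83, and rol-6 is open in 9 of its 16 alternatives.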

How the data were processed

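The deposited table holds a linear intensity for each probe set on each array, from biotin-labelled cRNA per the labels' protocols. How the authors summarised probes is not stated in any source used here. The 2%-trimmed mean of each array was 500.1 to 500.2, which shows a scaling. The 77 array controls among 22625 probe sets were not tested.

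Groups and replicate numbers came from the sample titles. Values were tested as log2(intensity + 16) with lmFit and eBayes of limma 3.58.1 (R 4.3.3), with group as the factor, and p was adjusted by Benjamini-Hochberg across the 22548 others. The code was tested on simulated data. Figures used matplotlib 3.10.9. Symbols came from the platform annotation, brought up to date by gene identifier with RefSeq names of WBcel235, which matched 20701 of 20766 probe sets with 1 symbol, all 12 collagen probe sets included. For other lists the brightest probe set stood for the gene.

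Every collagen probe set is named, and from other lists up to 3 called genes with the largest change, the brightest gene, the 5 genes whose profile lay nearest to rol-6 (1 is not reported here), and some others chosen after their values were seen. The members and lists were chosen with earlier results of these data known. Alternatives were quantile normalization, median centring, pseudocounts 1 and 64, a mean above 50, a variance trend, the replicate block, omission of marked probe sets, a 5'/3' covariate and omission of arrays. No genome or sequences were used here.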

Additional observations from a re-analysis of the deposited data

How the results depend on the processing

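Over the array, 1162 probe sets rose and 486 fell. These counts were 728 and 299 with a pseudocount of 1, 826 and 322 with 64, 598 and 307 without marked probe sets, 782 and 315 with the 5'/3' covariate, and 413 to 825 and 171 to 376 with 1 array left out. Without both space condition 1 and ground control 3 they were 0 and 0, and so were those of the collagens and of the other lists. Rises made up 70.5% of calls as reported, 58.8% after quantile normalization and 63.4% after median centring. Of the collagen probe sets 3 to 4 fell and 0 rose in the other 15 alternatives, and rol-6 was the one that lost its call; sqt-1 was not tested where marked probe sets were omitted. In the other lists 21 genes fell and 12 rose, against 9 and 4 without marked probe sets, 16 and 6 with the covariate, and 7 to 15 and 4 to 12 with 1 array left out. Replicate numbers were not taken as pairs, since no label says that a number is shared between the groups. Deviations of same-numbered arrays correlated at 0.39, 0.058 and 0.17, and those of arrays with different numbers at -0.28 to 0.16. Space conditions 1 and 3 correlated best with the ground control of their own number, and space condition 2 with ground control 3 (0.16). With the replicate block 1202 probe sets rose and 539 fell, and rol-6 stood at -1.87 (adjusted p = 0.0595).

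Uncalled differences near 0 changed sign. With arrays left out, dpy-5 ranged from -0.020 to 0.15, lon-3 from -0.10 to 0.024, bli-1 174152_s_at from -0.14 to 0.40, bli-1 190348_at from -0.032 to 0.13 and lin-26 from -0.20 to 0.28. With the covariate lon-3 stood at 0.050. After median centring bli-1 190348_at stood at -0.017 and lin-26 at -0.021, and after quantile normalization lin-26 stood at -0.031. The cause of these changes was not tested. Levels near background limit lon-3 and bli-1 on all arrays, and the space readings of rol-6, sqt-1, sqt-2 and sqt-3 174910_at.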

Other observations

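A few cuticle collagens stood on the higher side. The collagen gene dpy-14 had all space arrays above all ground arrays, at a mean intensity of 54 against 34.8 (log2 difference 0.48 ± 0.25, adjusted p = 0.283, limma), and col-38 did so at 110 against 60.1 (0.77 ± 0.26, adjusted p = 0.118). Neither had a call, and both were picked after their values were seen. Of 128 numbered collagens 29 had a difference above 0 and 99 below 0, while over all genes 8335 lay above 0 and 8783 below.

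The array's 12 probe sets for Bacillus subtilis control transcripts (dap, lys, phe and thr) had a mean log2 intensity of 10.17 ± 0.30 in the space condition and 11.13 ± 0.068 in the ground control (SD, n = 3 each), and the groups did not overlap. The 9 probe sets for hybridisation controls (bioB, bioC, bioD and cre) stood at 9.80 ± 0.076 and 10.26 ± 0.43, with overlap. The labels do not say when or in what amount these controls were added, so they were not used for scaling, and their part in the collagen values was not tested.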
